A study of Homo sapiens with 12 samples.

Results

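The 8 genes described here are the cyclin-dependent kinase (CDK) inhibitors of the INK4 family (CDKN2A, CDKN2B, CDKN2C and CDKN2D), those of the Cip/Kip family (CDKN1A, CDKN1B and CDKN1C), and CDKN3. They were taken from the table by symbol, and all 8 were among its 28278 gene symbols. The set was chosen by its response in these same libraries: CDKN2C was higher in HCQ-evolved pools of both lines and CDKN1A moved in opposite directions in the lines. Values that compare HCQ-evolved with control pools are therefore given for these genes as a description: no p-value is given for them, and a count of calls only restates the choice.

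The study passaged an ovarian cancer line, OVCAR3, and a colorectal cancer line, CCL218, with repeated pulses of hydroxychloroquine (HCQ, a lysosome-alkalinizing drug that blocks autophagy) or without it. The paper describes both lines as p53 mutant, resistant to platinum and rich in copy-number alterations. HCQ-evolved cells received 15 exposures of 48 h each and then grew for 7 days without drug before polyA RNA was sequenced. The 4 groups were control OVCAR3, HCQ-evolved OVCAR3, control CCL218 and HCQ-evolved CCL218, each with 3 pools of cells named for the left (L), middle (M) or right (R) part of a plate. Control pools were labelled passage 19 and HCQ-evolved pools passage 15, so passage and drug history cannot be told apart. The 3 pools of a group were parts of the same plate, so p-values measure the spread between pools only, and which wells of a plate a pool held was set by position.

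Each library held 31147822 to 59965861 counts, and 16569 to 18992 genes had a count. The defining markers did not place the libraries labelled OVCAR3 in the ovary. Of 10 Müllerian and serous ovarian markers, 5 reached 1 CPM (counts scaled to the library's total and its TMM factor, a correction for composition) in all pools of each group, and SOX17, EMX2 and ESR1 had at most 3 counts in the libraries labelled OVCAR3. Of 10 intestinal epithelial markers, 7 reached 1 CPM in all control pools labelled OVCAR3, and LGALS4 (730.0 CPM), VIL1 (241.0 CPM) and HNF4A (76.5 CPM) were high there. The summed intestinal markers ranged from 975 to 1190 CPM in control and from 245 to 703 CPM in HCQ-evolved OVCAR3, from 1230 to 1690 CPM in control and from 1300.0 to 1360 CPM in HCQ-evolved CCL218, so every OVCAR3 pool lay below every CCL218 pool. The intestinal factor CDX2 had 10.9 and 6.26 mean CPM in control and HCQ-evolved OVCAR3 and 23.2 and 67.8 in control and HCQ-evolved CCL218. In CCL218, CDH17 (3.84 to 52.5 mean CPM), GPA33 (4.77 to 34.7) and CEACAM5 (14.2 to 60.9) were also higher in HCQ-evolved pools, while LGALS4, the most abundant of the list, had 1050 and 785 mean CPM. KRT20 had at most 3 counts in every pool of the other groups, and its mean in HCQ-evolved CCL218 was 0.036 CPM, against 0.0304 in HCQ-evolved OVCAR3. Of 10 fibroblast, endothelial and leukocyte markers, 1 to 3 reached 1 CPM in all pools of a group, and their sum was 15.6 to 22.5 CPM in control pools against 30.7 to 56.1 CPM in HCQ-evolved pools, most of it CD68. No gene was at or above 5 CPM in every pool of one label and at or below 1 CPM in every pool of the other. "OVCAR3" below therefore means the libraries so labelled. The part of these marker differences in the results below was not tested. In bulk RNA, fewer cells that express a gene and less RNA per cell cannot be told apart.

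CDK inhibitors restrain the kinases that drive the cell cycle. INK4 proteins bind CDK4 and CDK6 and keep D-type cyclins from activating them, which leaves RB unphosphorylated and E2F factors silent. Cip/Kip proteins bind cyclin-CDK complexes more broadly, including cyclin E-CDK2, and can also help to assemble cyclin D-CDK4. CDKN3 (KAP) is a phosphatase that removes the activating phosphate from CDK2, and its transcript is cell cycle regulated.

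CDKN2C encodes p18INK4C, an INK4 protein expressed in many dividing cells. The gene (ENSG00000123080) lies at chr1:50960745-50974634 on the plus strand (hg38, GENCODE 44). It had 21.0, 23.8 and 23.3 CPM in L, M and R of control OVCAR3, and 60.1, 70.3 and 69.0 CPM in L, M and R of HCQ-evolved OVCAR3. In CCL218 it had 16.7, 15.8 and 15.4 CPM in control pools and 34.4, 36.7 and 28.7 CPM in HCQ-evolved pools. The lowest evolved pool exceeded the highest control pool in each line, so the groups did not overlap. The log2 fold change was 1.57 ± 0.18 (SE, n = 3 against 3), or 2.96-fold, in OVCAR3 and 1.06 ± 0.14, or 2.08-fold, in CCL218. Ordered by mean level, HCQ-evolved OVCAR3 (66.5 CPM ± 5.53, SD) stood above HCQ-evolved CCL218 (33.3 ± 4.11), control OVCAR3 (22.7 ± 1.47) and control CCL218 (16.0 ± 0.641). No neighbours in this order overlapped in their pools.

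CDKN2D encodes p19INK4D, the INK4 protein whose level is known to rise in S phase. It had 18.7, 12.7 and 16.4 CPM in control OVCAR3 L, M and R and 31.1, 33.6 and 33.1 CPM in HCQ-evolved OVCAR3, with no overlap. CCL218 had 15.2, 8.57 and 10.3 CPM in control and 19.8, 17.2 and 14.7 CPM in HCQ-evolved pools. The control L pool of CCL218 lay above the HCQ-evolved R pool, so these groups overlapped. On the log2 scale the change was 1.05 ± 0.20 in OVCAR3 and 0.60 ± 0.24 in CCL218, and without the control L pool the latter was 0.86.

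CDKN2B, which encodes p15INK4B and is known as a target of TGF-beta signaling, had the opposite direction. It had 18.3, 15.7 and 14.7 CPM in control OVCAR3 and 9.62, 7.97 and 9.89 CPM in HCQ-evolved OVCAR3. The CCL218 values were 18.1, 18.1 and 17.0 CPM in control and 12.2, 12.5 and 13.8 CPM in HCQ-evolved pools. Every HCQ-evolved pool lay below every control pool of its line. These differences came to a log2 fold change of -0.80 ± 0.20 in OVCAR3 and -0.47 ± 0.12 in CCL218.

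CDKN2A encodes p16INK4A and, from another reading frame, the p53 activator ARF, and counts per gene do not separate these transcripts. It had 419.0, 233 and 349 CPM in control OVCAR3 and 473, 517 and 218 CPM in HCQ-evolved OVCAR3. CCL218 had 385, 198 and 213 CPM in control and 213, 158 and 166 CPM in HCQ-evolved pools. The groups overlapped in both lines, and HCQ-evolved OVCAR3 R had less than the lowest control pool. The log2 fold change was 0.29 ± 0.35 in OVCAR3 and -0.57 ± 0.27 in CCL218. Leaving out evolved pool R gave 0.58 in OVCAR3, and leaving out control pool L gave -0.21 in CCL218, so single pools set these values. CDKN2A and CDKN2B are neighbours on chromosome 9, at chr9:21967752-21995301 and chr9:22002903-22009305 on the minus strand. CDKN2B-AS1 overlaps all of CDKN2B and part of CDKN2A on the opposite strand, and since the strand setting of the counting is not given in the sources used here, reads of the overlapping genes cannot be told apart. CDKN2B-AS1 itself had 1.49 to 3.25 CPM over the 12 pools and log2 fold changes of -0.19 (adjusted p = 0.808) in OVCAR3 and -0.26 (adjusted p = 0.497) in CCL218. MTAP, the methylthioadenosine phosphorylase gene on the other side of CDKN2A, gave 0.06 (adjusted p = 0.878) and -0.41 (adjusted p = 0.0661).

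**Figure D1:**
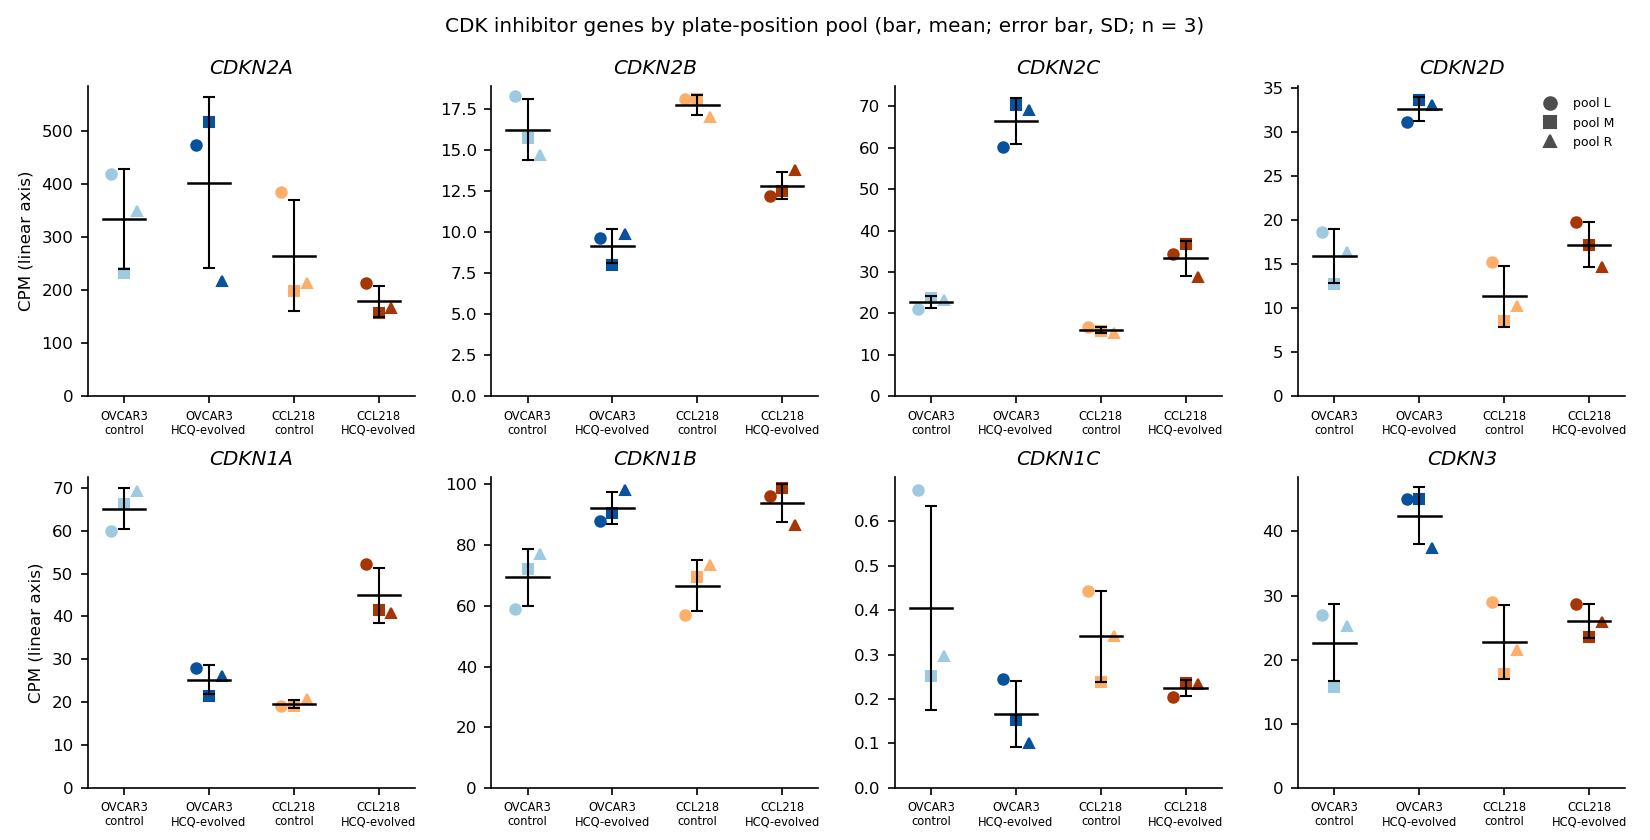
Normalized counts (CPM, linear axes from 0) of the 8 inhibitor genes in each of the 12 pools, with 1 point per pool, horizontal bars for the means and error bars for the SD of 3 pools. CDKN2C lies higher in the HCQ-evolved pools of both lines (60.1 to 70.3 and 28.7 to 36.7 CPM), and CDKN1A lies lower in those of OVCAR3 (21.5 to 28.0 CPM) and higher in those of CCL218 (40.9 to 52.3 CPM).

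CDKN1A encodes p21, the Cip/Kip protein best known as a target of p53. The gene lies at chr6:36676460-36687337 on the plus strand and shares 951 bases with DINOL on the opposite strand. It had 59.9, 66.2 and 69.2 CPM in control OVCAR3 L, M and R and 28.0, 21.5 and 26.2 CPM in HCQ-evolved OVCAR3. The CCL218 values were 19, 19.2 and 20.7 CPM in control and 52.3, 41.5 and 40.9 CPM in HCQ-evolved pools. The HCQ-evolved pools were below all control pools in OVCAR3 and above all control pools in CCL218. The log2 fold change was -1.35 ± 0.19 in OVCAR3 (a 2.55-fold lower level) and 1.19 ± 0.15 in CCL218 (2.28-fold higher). The difference between the responses was 2.56 ± 0.22 on the log2 scale, CCL218 minus OVCAR3. Ordered by mean level, control OVCAR3 (65.1 CPM ± 4.73) stood above HCQ-evolved CCL218 (44.9 ± 6.42), HCQ-evolved OVCAR3 (25.2 ± 3.38) and control CCL218 (19.6 ± 0.915), and no neighbours overlapped in their pools. Between control pools, CDKN1A differed by -1.72 ± 0.16, lower in CCL218 than in OVCAR3, and it was 0.83 ± 0.16 higher in HCQ-evolved CCL218 than in HCQ-evolved OVCAR3.

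CDKN1B encodes p27, which accumulates in resting cells and is degraded through SKP2 on entry into S phase. It had 58.9, 72.2 and 77.0 CPM in control OVCAR3 and 88.1, 90.7 and 98.3 CPM in HCQ-evolved OVCAR3. In CCL218 it had 57.1, 69.5 and 73.4 CPM in control and 96.1, 98.7 and 86.7 CPM in HCQ-evolved pools. The pools did not overlap within either line, while the lines overlapped within each condition. Its log2 fold change was 0.43 ± 0.19 in OVCAR3 and 0.49 ± 0.14 in CCL218. CDKN1B shares 10710 bases of its span with GPR19 on the opposite strand.

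CDKN1C, which encodes the imprinted inhibitor p57, had only 6 to 26 counts per pool. Its level was 0.251 to 0.67 CPM in control OVCAR3, 0.1 to 0.245 CPM in HCQ-evolved OVCAR3, 0.239 to 0.443 CPM in control CCL218 and 0.205 to 0.237 CPM in HCQ-evolved CCL218. The CPM ranges of control and HCQ-evolved pools did not overlap but lay within 1 count of each other in both lines, and the raw counts overlapped (8 to 26 against 6 to 14 in OVCAR3, 11 to 18 against 10 to 14 in CCL218). The gene did not reach the minimum of 1 CPM in 3 pools and entered no fit. The 7 other genes did.

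CDKN3 had 26.9, 15.8 and 25.2 CPM in control OVCAR3 and 45.0, 45.0 and 37.4 CPM in HCQ-evolved OVCAR3, with no overlap. In CCL218 it had 29.0, 17.8 and 21.5 CPM in control and 28.7, 23.5 and 25.9 CPM in HCQ-evolved pools, which lay within the control range. Its log2 fold change was 0.93 ± 0.23 in OVCAR3 and 0.19 ± 0.20 in CCL218.

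Over the members, the fit across all genes called CDKN2C and CDKN2D higher and CDKN1A lower in HCQ-evolved OVCAR3 (2 and 1 of 7 fitted members at an adjusted p of 0.05), where 0.647% of all 12204 genes were called higher and 1.21% lower. In CCL218 it called CDKN1A and CDKN2C higher (2 of 7) and 0 members lower, where 3.82% of all 12241 genes were called higher and 2.64% lower. With the plate position as a replicate block, which the pairing check allowed for CCL218, CDKN2D was called higher as well (3 of 7), in a fit that called 7.82% of all genes higher and 6.43% lower. In OVCAR3, where the positions did not pair the pools, the block called 0 members, with 5 at an unadjusted p under 0.05. Pools did not overlap for 6 of 7 members in OVCAR3 and 4 of 7 in CCL218, against 25.7% and 36.0% of all genes. The difference between the lines' responses was called for CDKN1A (1 of 7), against 0.872% of all 12613 genes. These shares, and the calls with single pools left out below, restate the contrasts on which the genes were selected, and nothing is read from them. Nearest to the threshold in OVCAR3 were CDKN2D inside it (1.05) and CDKN2B outside it (-0.80). In OVCAR3 the call of CDKN2C was kept without HCQ-evolved L or R and was lost without each of the other 4 pools, and those of CDKN1A and CDKN2D were kept without HCQ-evolved R only. In CCL218 the call of CDKN2C was lost without control R, HCQ-evolved L or HCQ-evolved M, while that of CDKN1A was kept whichever CCL218 pool was left out. The sizes moved less: over all settings the log2 fold change of CDKN2C was 1.49 to 1.64 in OVCAR3 and 0.99 to 1.15 in CCL218, and that of CDKN1A -1.43 to -1.24 and 1.07 to 1.25.

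**Figure D2:**
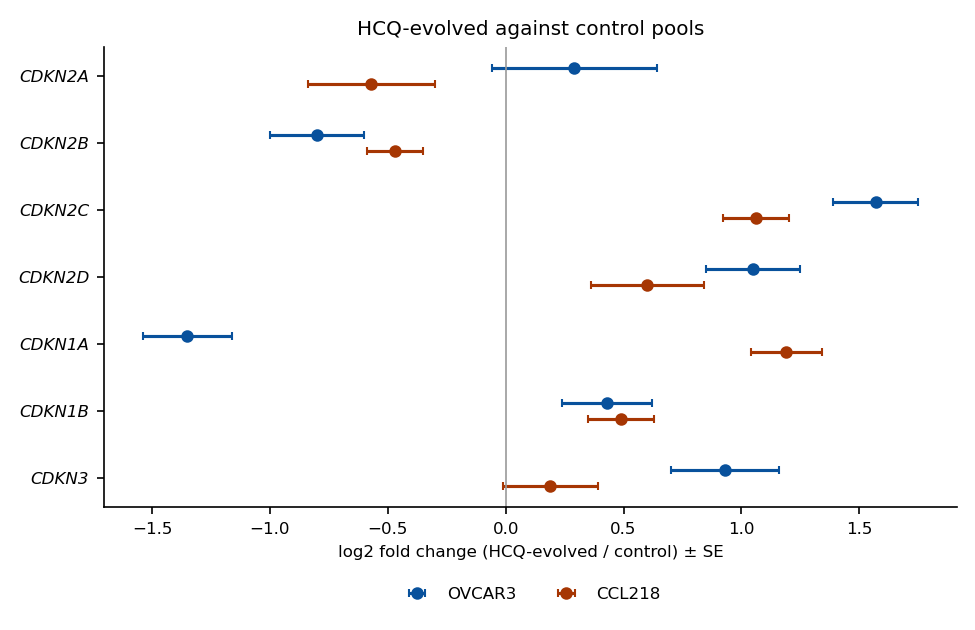
Log2 fold change of the 7 fitted inhibitor genes between HCQ-evolved and control pools, with the SE of the fit as error bars, for OVCAR3 (blue) and CCL218 (brown). CDKN2C lies to the right of 0 in both lines (1.57 and 1.06), and CDKN1A at -1.35 in OVCAR3 and 1.19 in CCL218.

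Levels were set side by side between genes only as CPM per kb of the canonical transcript. Within the INK4 family, CDKN2A made up 89.5% ± 2.60 (SD, n = 3) of the summed level in control OVCAR3 and 89.9% ± 2.21 in control CCL218. In HCQ-evolved pools this share was 79.9% ± 8.5 and 78.8% ± 2.80. The share of CDKN2C was 6.38% ± 2.12 in control and 14.6% ± 6.25 in HCQ-evolved OVCAR3, and 5.73% ± 1.58 in control and 14.6% ± 2.37 in HCQ-evolved CCL218. The share of CDKN2C in HCQ-evolved OVCAR3 was 10.6%, 11.3% and 21.8% in L, M and R, the last being the pool with the low CDKN2A level. CDKN2B held 0.331% to 2.05% of the family in any pool.

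Within the Cip/Kip family, CDKN1A held 51.6% ± 1.51 of the summed level per kb in control OVCAR3 and 23.7% ± 2.67 in HCQ-evolved OVCAR3. In CCL218 it held 25.1% ± 1.89 in control and 35.1% ± 2.96 in HCQ-evolved pools. CDKN1B made up nearly all of the rest, 48.0% ± 1.77, 76.2% ± 2.73, 74.3% ± 2.10 and 64.7% ± 2.94 in the same order of groups. The summed level of the family was 59.8 ± 5.99 CPM per kb in control and 50.3 ± 2.70 in HCQ-evolved OVCAR3, whose pools overlapped by a narrow margin (53.1 in control L and 53.2 in HCQ-evolved R). It was 37.1 ± 3.82 in control and 60.3 ± 4.66 in HCQ-evolved CCL218, whose pools did not overlap. These shares follow from the selected responses and were not tested.

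**Figure D3:**
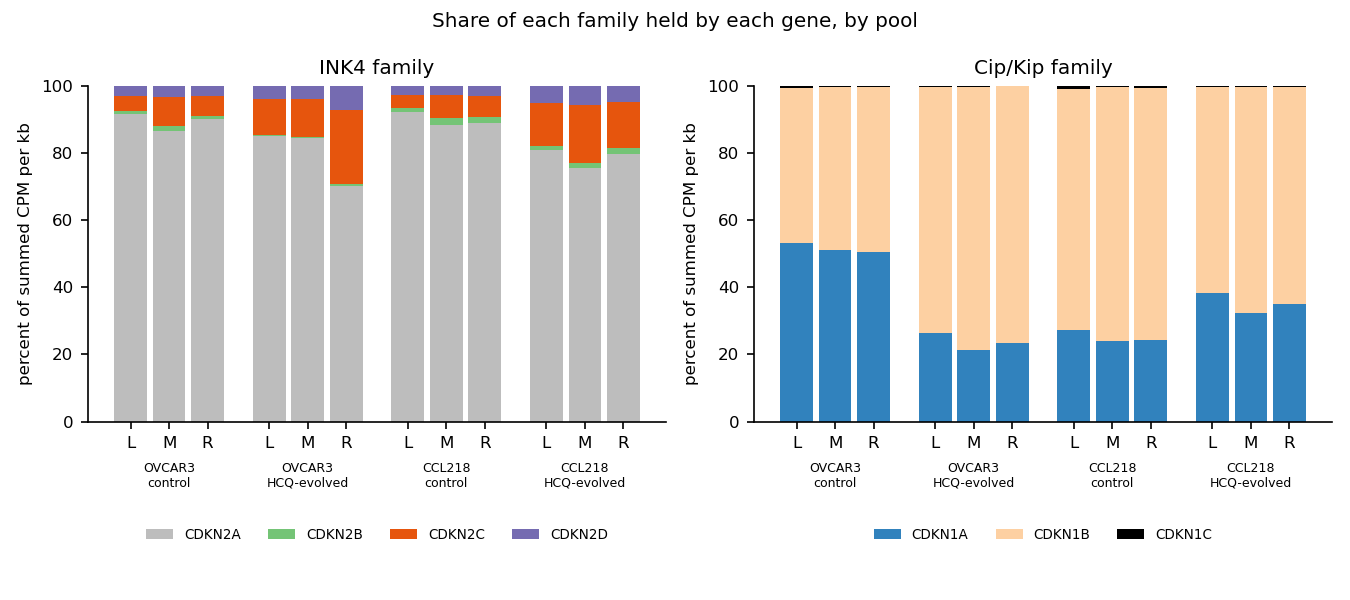
Percent of the summed CPM per kb held by each gene of the INK4 family (left) and the Cip/Kip family (right), with 1 stacked bar per pool. CDKN2A fills most of each INK4 bar (70.1% to 92.4%), and the CDKN1A share is largest in the control OVCAR3 pools (50.4% to 53.3%).

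The comparison of the lines within a condition is another contrast than those by which the members were chosen, and was tested for the members other than CDKN1A. It uses the same pools, so its p-values are not independent of that choice, least of all for CDKN2C. Counts at an unadjusted p, by DESeq2 or voom, or with pools left out are given without a share of all genes. Among control pools, 0 of 6 were called by the edgeR quasi-likelihood test, 1 (CDKN2C) at an unadjusted p under 0.05, 1 (CDKN2C) by DESeq2 and 0 by voom, where 0.949% of all 12324 genes were called higher and 1.10% lower in CCL218. CDKN2C differed by -0.50 ± 0.15, lower in CCL218 (adjusted p = 0.217), with pools that did not overlap, a state 17.6% of all genes shared. CDKN2D gave -0.48 ± 0.26 (adjusted p = 0.494), and -0.76 without control CCL218 L, -0.31 without M of that group. CDKN2A gave -0.32 ± 0.32 (adjusted p = 0.646), and -0.13 to -0.19 without control OVCAR3 L or control CCL218 M or R, but -0.70 without control CCL218 L and -0.53 without control OVCAR3 M. CDKN2B gave 0.14 ± 0.16 (adjusted p = 0.692). CDKN1B (-0.05 ± 0.19, adjusted p = 0.906) and CDKN3 (0.01 ± 0.27, adjusted p = 0.982) had nearly equal means. The control pools of the lines deviated together by plate position, and with the position as a replicate block 3 of 6 were called lower in CCL218: CDKN2C (-0.50, adjusted p = 0.00511), CDKN2D (-0.50, adjusted p = 0.00831) and CDKN2A (-0.35, adjusted p = 0.0306). That fit called many more genes of all kinds, 18.1% higher and 17.9% lower.

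Among HCQ-evolved pools, CDKN2C, CDKN2D and CDKN3 were lower in CCL218 (3 of 6 called lower and 0 higher), where 7.23% of all 12207 genes were called lower and 6.39% higher. CDKN2C differed by -1.0 ± 0.14 (adjusted p = 0.00778), CDKN2D by -0.92 ± 0.14 (adjusted p = 0.0112) and CDKN3 by -0.71 ± 0.14 (adjusted p = 0.0224). The pools of the lines did not overlap for any of these genes, nor for CDKN2A (-1.18 ± 0.33, adjusted p = 0.0656) and CDKN2B (0.48 ± 0.15, adjusted p = 0.0752), against 37.5% of all genes. CDKN1B did not differ beyond its spread (0.02 ± 0.11, adjusted p = 0.919). The calls rested on few pools: without HCQ-evolved CCL218 L, CDKN2D alone was called, and without M or R of that group 0 of 6 were, with 4 lower at an unadjusted p under 0.05 each time. Without HCQ-evolved OVCAR3 L or M, CDKN3 lost its call (adjusted p = 0.093 and 0.0799), and without R of that group CDKN2A and CDKN2B gained one. The sizes were stable, from -1.08 to -0.91 for CDKN2C when single pools were left out. Whether the line difference of CDKN2C, CDKN2D or CDKN3 was larger in HCQ-evolved than in control pools is the interaction on which the set was partly selected. Its value was -0.49 ± 0.19 for CDKN2C, -0.43 ± 0.31 for CDKN2D and -0.72 ± 0.32 for CDKN3, and none of these was called.

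**Figure D4:**
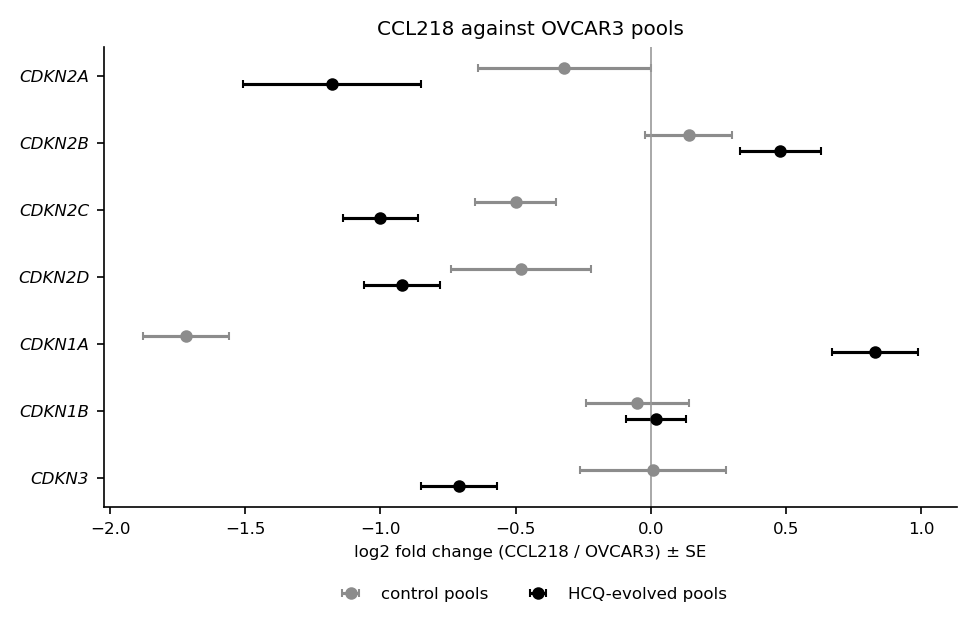
Log2 fold change of the 7 fitted inhibitor genes between CCL218 and OVCAR3 pools, with the SE of the fit as error bars, in control pools (grey) and HCQ-evolved pools (black). CDKN1A lies at -1.72 in control and 0.83 in HCQ-evolved pools, and CDKN2C at -0.50 and -1.0.

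The promoters are shown for the 3 members with the largest positive log2 fold changes in OVCAR3 (CDKN2C, CDKN2D and CDKN3) and for CDKN1A, whose direction differed between the lines. The letters are RefSeq sequence (GRCh38.p14) before the start site, restricted to the longest run outside exons annotated in GENCODE 44, and capitals mark matches, on either strand, to 5 short motifs. The E2F site was searched as TTTNNCGC. The cell cycle homology region was searched as TTTGAA. The CCAAT box was searched by the letters of its name. The GC box, which factors of the Sp family bind, was searched as GGGCGG. The TATA box, which positions the start of transcription, was searched as TATAAA. None of these motifs contains another, and adjacent GC boxes may overlap. For CDKN2C, the run before the last of its 3 listed start sites (chr1:50969995-50970244, plus strand) is given, since the window of its middle start site lies wholly in an annotated exon. The other runs are chr19:10569060-10569229 (minus strand) for CDKN2D, chr14:54396757-54396848 (plus strand) for CDKN3 and chr6:36678560-36678709 (plus strand) for CDKN1A.
CDKN2C: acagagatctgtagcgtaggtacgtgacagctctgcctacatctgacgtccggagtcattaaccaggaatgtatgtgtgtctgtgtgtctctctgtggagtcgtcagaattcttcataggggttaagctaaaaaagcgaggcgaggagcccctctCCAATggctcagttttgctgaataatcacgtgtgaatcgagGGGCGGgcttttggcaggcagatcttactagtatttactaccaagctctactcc
CDKN2D: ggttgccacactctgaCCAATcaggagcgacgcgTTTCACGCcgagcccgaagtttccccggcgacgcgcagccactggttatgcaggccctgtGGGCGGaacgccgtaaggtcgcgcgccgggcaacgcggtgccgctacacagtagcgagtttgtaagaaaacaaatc
CDKN3: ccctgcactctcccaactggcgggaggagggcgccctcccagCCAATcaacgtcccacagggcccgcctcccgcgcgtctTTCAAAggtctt
CDKN1A: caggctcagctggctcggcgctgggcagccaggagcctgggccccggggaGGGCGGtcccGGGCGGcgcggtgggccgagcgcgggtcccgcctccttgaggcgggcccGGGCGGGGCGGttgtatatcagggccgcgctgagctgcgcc
The CDKN2D run held 1 E2F site, 1 CCAAT box and 1 GC box, and the CDKN3 run 1 cell cycle homology region and 1 CCAAT box. The CDKN2C run held 1 CCAAT box and 1 GC box, and the CDKN1A run 4 GC boxes. The runs were 170 (CDKN2D), 92 (CDKN3), 250 (CDKN2C) and 150 (CDKN1A) bases long. The shares that follow are over 250 bases, so shorter runs are not matched to them in length. Of 35116 RefSeq promoters, the 250 bases before the start held an E2F site in 5.92%, a cell cycle homology region in 13.3%, a CCAAT box in 32.0%, a GC box in 42.6% and a TATA box in 10.7%. In the full 250 bases, the middle start site of CDKN2C had 5 GC boxes, its first had no match, CDKN1B had 2 CCAAT boxes and 1 GC box, and CDKN2B had 2 GC boxes. Over that length CDKN2D had 2 GC boxes and CDKN3 had 2 CCAAT boxes. A match is a description of letters, and counts per gene do not tell the start sites apart.

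The CDKs, cyclins and other genes that act on or with the inhibitors were read from 9 lists with 146 genes fitted. These lists were chosen with earlier results of these data known. Their calls and adjusted p-values are therefore not independent support for the members' values. Some genes are in several lists, and the totals count each once. Shares over all genes are given only for the main edgeR fits and some fits with the replicate block. Counts at an unadjusted p, by DESeq2 or voom, or with pools left out have no such share beside them, and nothing is read from them. In HCQ-evolved OVCAR3, 8 were called higher and 2 lower, where 0.647% of all genes were called higher and 1.21% lower. In HCQ-evolved CCL218, 7 were called higher and 1 lower, where 3.82% of all genes were called higher and 2.64% lower. In CCL218, where deviations of pools at the same plate position correlated (0.195 to 0.506), the replicate block raised these counts to 17 and 5. That fit called 7.82% of all genes higher and 6.43% lower. In OVCAR3 the count higher was 0 without control L, M or R or HCQ-evolved L or M (34 to 39 genes at an unadjusted p under 0.05) and 21 without HCQ-evolved R. In CCL218 it was 30 without control L and 1 to 3 without each other pool. The genes named here by the smallest p in their list are AURKA, BTG2, CBX7, CCNE1, CDC25C, CDK1, CKS1B, E2F4, FOXO4, KLF4, MYBL2, PKMYT1, POLH and RRM2, and the others were named after their values were seen.

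Among the CDKs and cyclins that the inhibitors bind, 3 of 13 were called higher and 1 lower in OVCAR3, and the list's median change was 0.45 on the log2 scale, against 0.02 over all genes. CDK1, the mitotic kinase, rose in both lines, by 1.29 ± 0.21 (adjusted p = 0.0318) in OVCAR3 and 0.63 ± 0.12 (adjusted p = 0.0251) in CCL218. Its partner cyclins CCNB1 (0.92 ± 0.15, adjusted p = 0.0336) and CCNB2 (0.96 ± 0.17, adjusted p = 0.0409) rose in OVCAR3. CCND1, the cyclin D1 gene whose product activates the INK4 targets CDK4 and CDK6, fell in OVCAR3 from 180.0 to 83.7 mean CPM (-1.08 ± 0.19, adjusted p = 0.038), in the same pools in which CDKN2C was high. In CCL218 CCND1 gave 0.18 ± 0.13 (adjusted p = 0.411), and the difference between the lines was called (1.28 ± 0.21, adjusted p = 0.0178). In CCL218, 1 of the 13 was called higher and 0 lower, with a median of 0.04 against -0.02, and 4 were higher and 2 lower at an unadjusted p under 0.05.

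Among the 5 genes of CDK tyrosine and threonine phosphorylation, the phosphatase gene CDC25C rose in CCL218 (0.64 ± 0.14, adjusted p = 0.0402) and gave 0.75 ± 0.17 (adjusted p = 0.0678) in OVCAR3, where edgeR called 0 genes, 3 were higher at an unadjusted p under 0.05, DESeq2 called 3 and voom 0. PKMYT1, an inhibitory kinase of CDK1, gave 0.88 ± 0.18 (adjusted p = 0.0583) in OVCAR3. Of 15 genes of inhibitor degradation, edgeR and voom called 0 in either line, 1 in each was higher at an unadjusted p under 0.05, and DESeq2 called 1 in OVCAR3 and 0 in CCL218. CKS1B, the SKP2 cofactor for p27, was nearest in both, at 1.06 ± 0.32 (adjusted p = 0.154) and 0.48 ± 0.19 (adjusted p = 0.169).

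Of 26 genes of p53 and its targets, DDB2 was called higher and BTG2 lower in OVCAR3, and POLH higher in CCL218. The paper describes both lines as p53 mutant, and p53 activity was not tested, so the list is only a set of names. DDB2, a nucleotide excision repair gene, had 16.5, 38.2, 11.3 and 16.7 mean CPM in control OVCAR3, HCQ-evolved OVCAR3, control CCL218 and HCQ-evolved CCL218. BTG2, an antiproliferative gene, fell by 2.57 on the log2 scale in OVCAR3 (264 to 44.2 mean CPM, -2.57 ± 0.26, adjusted p = 0.0101), where CDKN1A was lower too, and gave -0.32 ± 0.15 (adjusted p = 0.247) in CCL218. POLH, the gene of a translesion polymerase, gave 0.97 ± 0.15 (adjusted p = 0.0156) in CCL218 and 0.92 ± 0.26 (adjusted p = 0.128) in OVCAR3. The median of the list was -0.12 in OVCAR3 and -0.06 in CCL218, near that of all genes (0.02 and -0.02), with genes on both sides of it. In OVCAR3, 4 were higher and 8 lower at an unadjusted p under 0.05, DESeq2 called 8 and voom 3. In CCL218, 4 were higher and 4 lower at an unadjusted p under 0.05, DESeq2 called 6 and voom 2.

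Of 21 transcriptional regulators of inhibitor genes, 1 was called higher in CCL218 and edgeR called 0 in OVCAR3, where 6 were lower at an unadjusted p under 0.05, DESeq2 called 6 lower and voom 0. KLF4, a zinc finger factor known to activate CDKN1A, had 22.7 and 10.9 mean CPM in control and HCQ-evolved OVCAR3 and 19.4 and 52.4 mean CPM in control and HCQ-evolved CCL218. It rose in CCL218 (1.43 ± 0.13, adjusted p = 0.00253) and gave -1.05 ± 0.29 (adjusted p = 0.118) in OVCAR3. The difference between the lines was called for KLF4 (2.50 ± 0.32, adjusted p = 0.00474) and BTG2 (2.27 ± 0.29, adjusted p = 0.00489), with CCND1 the 3 partner genes called in that comparison. The replicate block, where the positions did not pair all groups, called 0 of the 146 there, with 27 at an unadjusted p under 0.05. FOXO4, a factor that can activate CDKN1B, gave -0.87 ± 0.20 (adjusted p = 0.0769) in OVCAR3.

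Of 13 Polycomb and opposing factors at the INK4 locus, CBX7 (0.92 ± 0.14, adjusted p = 0.0116) and EED (0.67 ± 0.14, adjusted p = 0.0391) rose and CBX2 (-0.89 ± 0.16, adjusted p = 0.0218) fell in CCL218. In OVCAR3 edgeR called 0, 3 were higher and 3 lower at an unadjusted p under 0.05, and DESeq2 called 4 and voom 1. Of 19 RB, E2F and DREAM factors edgeR and voom called 0 in either line, with 4 in OVCAR3 and 3 in CCL218 at an unadjusted p under 0.05 and 1 called by DESeq2 in each. MYBL2, a DREAM-regulated factor, gave 0.59 ± 0.18 (adjusted p = 0.146) in OVCAR3, and E2F4 gave -0.44 ± 0.15 (adjusted p = 0.121) in CCL218.

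Of 22 G1/S genes driven by E2F, RRM2, the ribonucleotide reductase subunit, was called higher in OVCAR3 (1.08 ± 0.20, adjusted p = 0.0484), with 10 higher at an unadjusted p under 0.05 and a list median of 0.49. In CCL218 edgeR and voom called 0, 1 was lower at an unadjusted p under 0.05, DESeq2 called 1 lower, and CCNE1 was nearest (-0.57 ± 0.17, adjusted p = 0.0987). Of 20 G2/M genes, 6 were called higher in OVCAR3 and 3 in CCL218, with medians of 0.92 and 0.42 and 17 and 12 higher at an unadjusted p under 0.05. These calls include genes already counted in lists above: CDK1, CCNB1 and CCNB2 in OVCAR3, and CDK1 and CDC25C in CCL218. AURKA, the mitotic kinase gene, rose by 1.01 ± 0.16 (adjusted p = 0.0309) in OVCAR3 and gave 0.37 ± 0.11 (adjusted p = 0.0996) in CCL218. CDC20 and DLGAP5 in OVCAR3 and HMMR in CCL218 were also called. CDKN3 and CDKN2D, which are known to be cell cycle regulated, had larger log2 fold changes in OVCAR3 (0.93 and 1.05) than in CCL218 (0.19 and 0.60), a difference that was not called. These values come from the contrasts on which the set was chosen. Whether they share a cause with the G2/M genes was not tested.

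**Figure D5:**
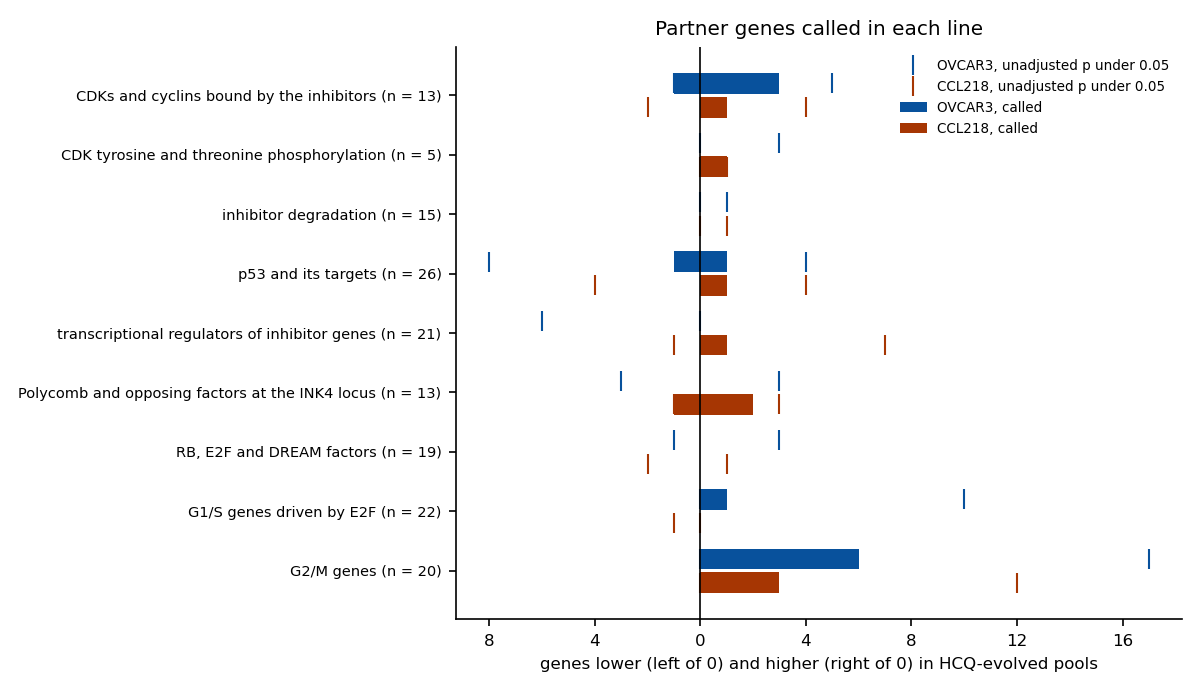
Number of partner genes of each list called higher (bars right of 0) or lower (bars left of 0) after HCQ evolution at an adjusted p of 0.05, with ticks for the number at an unadjusted p under 0.05, for OVCAR3 (blue) and CCL218 (brown); n is the number of genes fitted in OVCAR3. G2/M genes have the most calls in OVCAR3 (6 of 20, all higher), and in CCL218 they and the Polycomb list have 3 each. A gene in several lists counts in each of them.

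Genes with the pattern most like those of CDKN2C and CDKN1A were found by the root mean square difference of mean-centred log2(CPM + 0.5) values over the 12 pools, among 10317 genes with a mean of at least 5 CPM. For CDKN2C, whose own spread about its mean was 0.76, the nearest were ADAM8 (0.20), ADORA2B (0.20), PBK (0.22), LDHA (0.23) and DDB2 (0.24). LDHA had 1600 CPM in control OVCAR3, 3220 in HCQ-evolved OVCAR3, 1140 in control CCL218 and 2190 in HCQ-evolved CCL218, the same order of groups as CDKN2C. For CDKN1A, with an own spread of 0.68, the nearest were CSRNP1 (0.32), KLF6 (0.38), KLF2 (0.38), MAFF (0.39) and ASS1 (0.39), all further from it than the 5 genes were from CDKN2C. KLF2 had 19.8, 7.27, 8.91 and 19.7 mean CPM in the same order of groups, and CSRNP1 had 41.8, 13.1, 14.2 and 20.6.

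The genes around CDKN2C and CDKN1A were read for a change shared along the chromosome. Their counts at an unadjusted p, by DESeq2 or by voom have no share of all genes beside them, and nothing is read from those. Of the 3 nearest fitted genes on each side of CDKN2C (SLC5A9, SPATA6, FAF1, RNF11, TTC39A and EPS15), 0 were called in either line by edgeR. In OVCAR3, 1 passed an unadjusted p under 0.05 and DESeq2 and voom called 0, and in CCL218, 4 passed an unadjusted p under 0.05, DESeq2 called 3 and voom 0. FAF1, on the opposite strand and starting 478 bases before CDKN2C, gave 0.34 ± 0.16 (adjusted p = 0.352) in OVCAR3 and 0.21 ± 0.11 (adjusted p = 0.267) in CCL218. The largest differences were -0.81 for SPATA6 in OVCAR3 and 1.05 for SLC5A9 in CCL218, genes that lie 2488537 and 2712101 bases from CDKN2C. Around CDKN1A (KCTD20, STK38, SRSF3, PPIL1, C6orf89 and MTCH1), 0 were called in either line by edgeR or voom. In OVCAR3, 1 passed an unadjusted p under 0.05 and DESeq2 called 0, and in CCL218, 2 passed it and DESeq2 called 2. The log2 fold changes ranged from -0.07 to 0.42 in OVCAR3 and from -0.23 to 0.44 in CCL218.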

How the data were processed

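PolyA RNA was sequenced from 12 pools of established cell lines. The authors deposited 1 table of raw counts per gene symbol; their notes name STAR, featureCounts and hg38, with versions and strand setting not given in the sources used here. All 12 columns were matched to samples by title. The 8 members and the partner lists were chosen with earlier results of these data known.

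Genes reaching 1 CPM in 3 or more fitted pools were tested with the quasi-likelihood test of edgeR 4.0.16 (R 4.3.3, TMM scaling, Benjamini-Hochberg adjustment over all fitted genes, threshold 0.05). SE is the absolute log2 fold change divided by the square root of F. CPM were TMM-normalized over all 12 pools (factors 0.868 to 1.088). Each response used the 6 pools of its line, the difference of responses all 12, and each line comparison the 6 pools of its condition. Alternatives used DESeq2 1.42.0, voom in limma 3.58.1, other scalings and filters, a length and GC trend, and left-out pools. Scripts were tested on simulated data.

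Plate positions were checked as pairs by the correlation, over genes, of deviations from group means. Pairs of control and HCQ-evolved CCL218 gave 0.506, 0.233 and 0.195 (L, M and R) and pairs of control OVCAR3 and control CCL218 gave 0.846, 0.804 and 0.237, all over 0.1, so the pairing comes from the data. GENCODE 44 (hg38) gave positions and lengths and matched 25763 of 28278 symbols (91.1%).

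Named partner genes were, in each list, the gene with the smallest p in each line; all 8 members were named, and 1 partner gene that this rule names is not reported here.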

Additional observations from a re-analysis of the deposited data

Results flagged for a closer look

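The response to HCQ evolution differed between the lines, by the interaction test of line and treatment over all 12 pools, for CDKN1A and for 3 of the 146 partner genes. CDKN1A differed by 2.56 on the log2 scale, CCL218 minus OVCAR3, and was selected on this difference. The partner lists were chosen with earlier results known, so the partner calls are not independent of these data either. KLF4 differed by 2.50, with 22.7 and 10.9 mean CPM in control and HCQ-evolved OVCAR3 and 19.4 and 52.4 in CCL218. BTG2 differed by 2.27, with 264 and 44.2 mean CPM in OVCAR3 and 267 and 215 in CCL218. CCND1 differed by 1.28, with 180.0 and 83.7 mean CPM in OVCAR3 and 225 and 255 in CCL218. Intestinal markers moved with these genes: their sum was 975 to 1190 CPM in control and 245 to 703 CPM in HCQ-evolved OVCAR3, and in CCL218, where CDKN1A and KLF4 were higher after HCQ evolution, CDX2 had 23.2 and 67.8, CDH17 3.84 and 52.5, GPA33 4.77 and 34.7 and CEACAM5 14.2 and 60.9 mean CPM in control and HCQ-evolved pools. Their part was not tested.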

How the results depend on the processing

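No called result reversed in any setting run, but counts of calls moved. Shares of all genes under these settings are not given, apart from the block in CCL218 and between control pools. The cause was not tested. Partner genes called higher in OVCAR3 (8) were 17 with no filter, 31 by DESeq2, 0 with the replicate block (34 at an unadjusted p under 0.05), 33 with a length and GC trend removed and 29 in one fit of 12 pools. Those called lower (2) were 5, 15, 1, 12 and 15 under the same settings and 4 by voom. In CCL218, those called higher (7) were 20 by DESeq2, 17 with the block and 23 with the trend removed, and those lower (1) were 6, 5 and 11 and 2 with upper-quartile scaling. Partner genes called in the difference of responses (3) were 18 by DESeq2, 0 with the block and 19 with the trend removed. Members other than CDKN1A called between control pools (0) were 1 by DESeq2 and 3 with the block, and between HCQ-evolved pools (3) 5 by DESeq2. With each pool left out in turn, these counts ranged from 0 to 21 and from 0 to 11 in OVCAR3, from 1 to 30 and from 0 to 19 in CCL218, from 2 to 5 for the difference, and from 0 to 5 for HCQ-evolved pools. By the correlation check alone, positions paired control with HCQ-evolved pools in CCL218 but not in OVCAR3 (0.401, -0.665 and -0.478). Nor did they pair the HCQ-evolved pools of the lines (0.509, -0.119 and 0.514). The block left the count of 3 members between HCQ-evolved pools as it was. CDKN1C, at 6 to 26 counts per pool, could not be fitted.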
